A study of Homo sapiens with 9 samples.

Results

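The genes described here belong to the ATF4 and endoplasmic reticulum (ER) stress programmes, 36 genes in all among the 18970 symbols of the count tables. They were taken by name and form 2 classes. The amino acid and ATF4 class held 23 genes and the ER chaperone class held 13. Of the 36 genes, 35 passed the filter on low counts in the labelled and in the total reads. The exception was NUPR1, a small stress-induced chromatin protein, which had 0 to 2 labelled reads and 0 to 7 total reads per library and was not tested.

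The cells were cranial neural crest cells (CNCCs), differentiated from H9 embryonic stem cells, an established human line, after both SOX9 alleles had been given a C-terminal FKBP12-F36V–mNeonGreen–V5 tag. The heterobifunctional molecule dTAGV-1 directs the tagged transcription factor to the proteasome, and the comparison asks what happens to transcription once SOX9 is gone. SLAM-seq was run on 3 cultures (S9CC13_R6, S9CC47_R5 and S9CC47_R6, which come from 2 clones and 2 differentiation batches) without dTAGV-1 treatment (0h) and after 3h or 24h of 500 nM dTAGV-1, which gives 9 libraries and 3 per group. Each culture was given 100 uM of 4-thiouridine (4sU) for its last 2 h, and reads that carry a T>C conversion, called T>C reads, mark RNA made in that window, whereas total reads count all RNA at the 3′ end. All 9 libraries therefore share the tag and the labelling. The labels list the 500 nM dose at 0h as well, with a time of 0, and name DMSO as the vehicle. By the paper's methods, labelled cells received either DMSO or dTAGV-1, so the 0h libraries are taken here as the vehicle controls. Below, "before dTAGV-1" refers to these 0h libraries and not to an earlier sampling of the treated cells. The labels give no animals or donors, and S9CC47_R5 is the only culture of its batch. Where the values of the 3 cultures are listed below, they stand in the order just given.

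The ER chaperones fold secreted and membrane proteins. When unfolded proteins build up, the sensors PERK, IRE1 and ATF6 start the unfolded protein response. IRE1 splices the XBP1 transcript and ATF6 is cut to release a transcription factor, and both raise chaperone and degradation genes. PERK and its sister kinases phosphorylate eIF2α, which lowers protein synthesis but favours translation of ATF4, whose targets import and make amino acids, charge tRNAs and, with DDIT3 (CHOP), include cell death genes. Neural crest cells that go on to form cartilage secrete collagens, and so depend on ER folding.

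Libraries held 16955633 to 28782678 total reads and 3130673 to 5475800 T>C reads. The T>C share of a library ran from 15.9% (S9CC13_R6 at 3h) to 21.3% (S9CC47_R6 at 24h). The 10 neural crest markers were detected in all 9 libraries, with a summed level of 4161 to 4169 CPM (counts scaled to equal library totals) at 0h, 4984 to 5165 at 3h and 6236 to 6516 at 24h. Most of that rise lay in the transcripts of SOX9 itself (736 to 783 CPM at 0h and 1614 to 1862 at 24h) and MSX1 (594 to 672 and 1349 to 1553). The other 8 summed to 2714 to 2839 CPM at 0h, 2720 to 2765 at 3h and 3026 to 3262 at 24h. Of 8 markers of pluripotent or neural progenitor cells, SOX1 was at 0 in 9 libraries and POU5F1 in 8, while LIN28A (241 to 374 CPM) and DPPA4 (34.2 to 44.6 CPM) were present. The summed level of these 8 was 351 to 415 CPM at 0h, 304 to 350 at 3h and 282 to 307 at 24h, and the part of either marker shift in the values below was not tested. In bulk libraries, fewer cells of a type and less RNA per cell cannot be told apart.

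Short promoter elements are known for both classes, and the stretches that hold them are shown for some of the genes with a match. The amino acid response element, bound by ATF4 with a C/EBP partner, was searched as TGATGNAAN. The ER stress response element, read by ATF6 and NF-Y, was searched as CCAAT, then 9 bases of any kind, then CCACG. The unfolded protein response element was searched as TGACGTGG. Both strands were read in RefSeq promoter windows of 300 bases (GRCh38.p14, 250 bases before the start and 50 after), which were at hand for 32 of the 36 genes. PSPH, SHMT2, SLC7A11 and NUPR1 are the other 4. Each line below gives the strand of the gene, 5′ to 3′, with the motif in capitals. The start is that of the RefSeq window. For CHAC1 and HSP90B1 it lies inside the gene interval given further below, which comes from another annotation. In HERPUD1 and CHAC1, and in the second HSP90B1 stretch, the motif reads on the opposite strand.
ASNS, chr7:97872448-97872496, minus strand, first motif base 68 before the start: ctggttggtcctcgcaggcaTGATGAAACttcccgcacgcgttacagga
CHAC1, chr15:40953241-40953289, plus strand, first motif base 210 before the start: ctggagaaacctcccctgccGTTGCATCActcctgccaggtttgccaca
HERPUD1, chr16:56931945-56931993, plus strand, first motif base 177 before the start: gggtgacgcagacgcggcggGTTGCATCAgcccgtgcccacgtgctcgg
HSPA5, chr9:125241371-125241429, minus strand, first motif base 66 before the start: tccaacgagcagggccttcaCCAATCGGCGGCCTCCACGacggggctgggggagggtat
XBP1, chr22:28800583-28800641, minus strand, first motif base 52 before the start: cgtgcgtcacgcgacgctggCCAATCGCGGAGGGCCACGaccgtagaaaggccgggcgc
HSP90B1, chr12:103930196-103930254, plus strand, first motif base 194 before the start: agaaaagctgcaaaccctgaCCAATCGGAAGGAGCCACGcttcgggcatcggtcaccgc
HSP90B1, chr12:103930301-103930359, plus strand, first motif base 89 before the start: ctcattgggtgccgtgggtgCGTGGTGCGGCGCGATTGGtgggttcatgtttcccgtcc

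The ER stress element lay in 6 of 13 ER chaperone genes (XBP1, HSPA5, HSP90B1, PDIA6, CRELD2 and CALR) and in 0 of 19 amino acid and ATF4 genes with a window, against 0.0916% of all 27305 symbols in the table. The amino acid response element lay in 5 of 19 genes of that class (ASNS, CHAC1, SLC7A1, SLC3A2 and AARS) and in 1 of 13 ER chaperone genes (HERPUD1), against 4.45% of all symbols. The unfolded protein response element was found in none of the 32, against 0.927% of all symbols. Of the genes called below, ATF4, PSAT1, PDIA4 and SESN2 had a window but no match to any of the elements. HERPUD1, an ER membrane protein of the degradation machinery, was thus the ER chaperone gene that carried the amino acid motif. A match is a description of letters in a window and shows no binding.

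At 3h, 1 of the 35 tested genes was called in T>C reads at an adjusted p under 0.1 in the DESeq2 Wald test, where 1.79% of all 12037 genes were called. The gene was HERPUD1 (chr16:56932142-56944864, hg38, plus strand). Its normalized T>C reads (counts divided by size factors) were 129, 139 and 145 before dTAGV-1. They were 191, 182 and 228 at 3h. At 24h they were 202, 152 and 245. Every library at 3h and at 24h lay above every library at 0h, and S9CC47_R5 at 24h was the lowest of those 6. HERPUD1 rose by a log2 fold change of 0.59 (SE 0.18, 95% interval 0.24 to 0.95, adjusted p = 0.0699), a 1.51-fold change. At 24h the log2 fold change was 0.41 (SE 0.19) and was not called (adjusted p = 0.290). With culture as a replicate block, the 3h value was 0.53 and was not called (adjusted p = 0.291), and the call was also lost without the surrogate variable (adjusted p = 0.358), with all genes of at least 1 count (0.109) and with size factors from total reads (0.140). It also missed the threshold when any 1 culture was left out (log2 fold change 0.47 to 0.62, adjusted p 0.643 to 1.000). Over all genes those fits of 6 libraries called 55 to 90, beside 216 in the main fit.

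**Figure D1:**
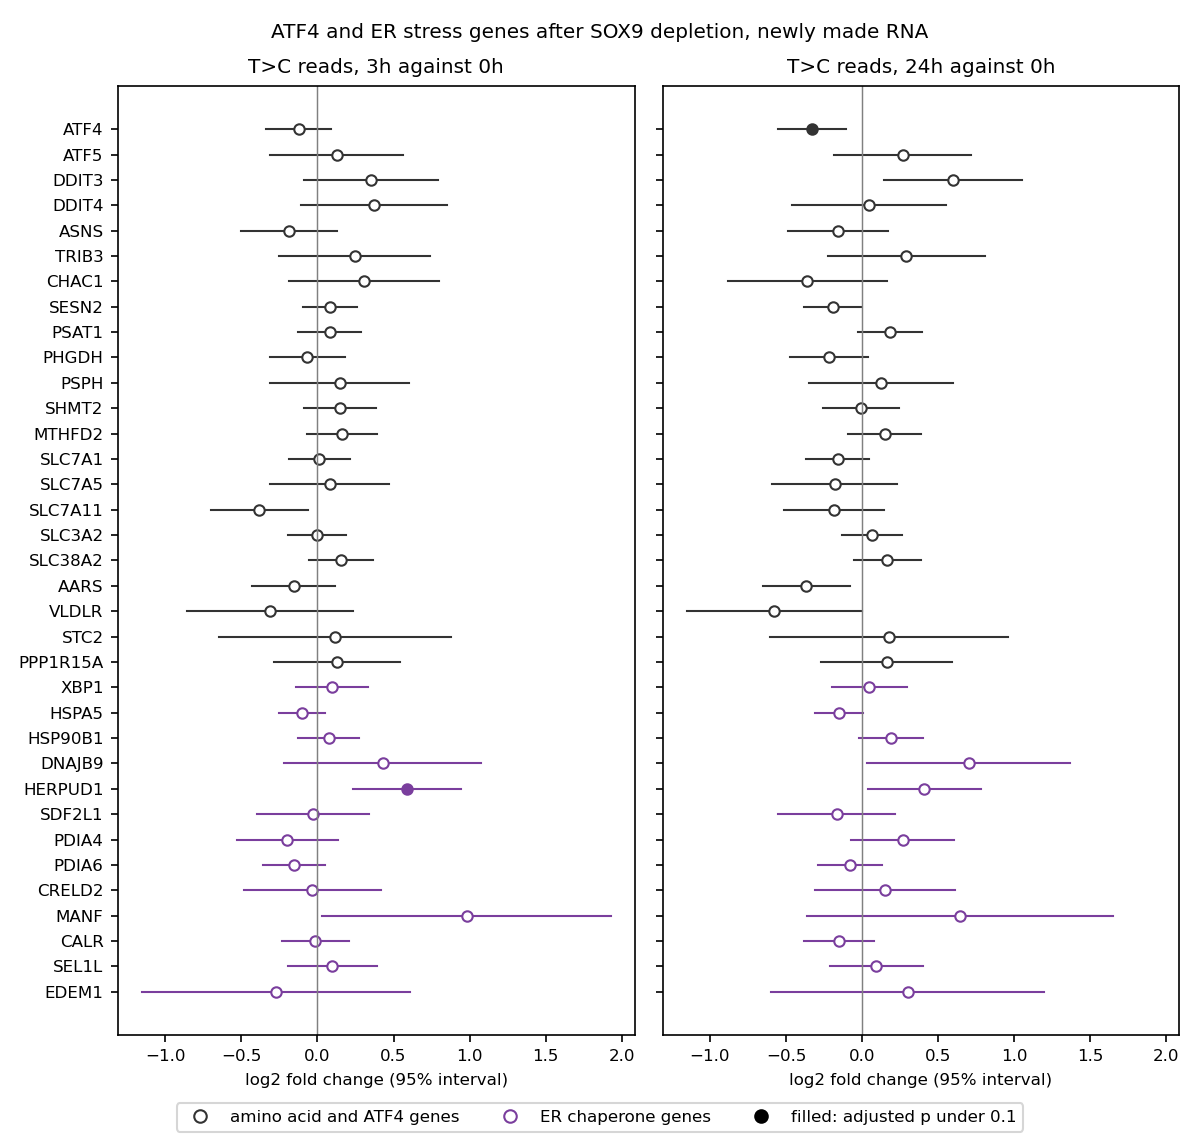
Log2 fold change of T>C reads (x axis, bars are 95% intervals) for the 35 tested genes, at 3h (left) and 24h (right) against 0h, with 3 libraries per group. Filled points passed an adjusted p under 0.1, which HERPUD1 did at 3h (0.59) and ATF4 did at 24h (-0.33), most other intervals include 0, and those of MANF and EDEM1 are the widest at 3h.

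The other 34 tested genes were not called at 3h. Over the 35, the median log2 fold change was 0.08, beside -0.01 over all genes tested, and 21 were above 0, where 47.7% of all genes were. For 32 of the 35 the 95% interval stayed within 1 log2 unit of 0. The 3 whose interval reached further were DNAJB9, EDEM1 and MANF, all ER chaperone genes. EDEM1 had 16 to 60 T>C reads per library. DNAJB9 had 27 to 150, and its 3h libraries lay apart, at 35.7, 51.1 and 120 normalized T>C reads. MANF, a secreted ER stress protein, had 8 to 68 T>C reads per library, and its log2 fold change was 0.98 (SE 0.48, adjusted p = 0.665). SLC7A11, the cystine importer, had the lowest value, -0.38 (SE 0.16, adjusted p = 0.469), and was lower at 3h than at 0h in all 3 cultures.

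At 24h, 1 of the 35 genes was again called in T>C reads, where 4.98% of all genes were called, and it was ATF4 itself (chr22:39519695-39522683, hg38, plus strand). ATF4 is the transcription factor at the head of the class. Its normalized T>C reads were 3729 in S9CC13_R6, 3142 in S9CC47_R5 and 4020 in S9CC47_R6 before dTAGV-1. At 3h they were 3915, 4028 and 2717. They were 2439, 3150 and 2382 at 24h. S9CC47_R6 was already low at 3h, and in S9CC47_R5 the 24h library (3150) was no lower than its 0h library (3142), so the 0h and 24h groups overlapped. The log2 fold change was -0.33 (SE 0.11, 95% interval -0.56 to -0.11, adjusted p = 0.0798), with lower reads at 24h in 2 of 3 cultures. With the replicate block it was -0.47 and the count of genes called rose from 1 to 3, adding AARS and SESN2. Over all genes the block raised the count from 599 to 722. AARS, the alanyl-tRNA synthetase, was at -0.50 with the block (adjusted p = 0.0458) and at -0.37 without it (adjusted p = 0.174). SESN2, which restrains mTORC1 when leucine is short, was at -0.32 with the block (adjusted p = 0.0928) and at -0.19 without it (adjusted p = 0.331). Without S9CC13_R6 the ATF4 value was -0.04 and without S9CC47_R6 it was -0.32, neither called (adjusted p = 1 in both), and without S9CC47_R5 it was -0.51 (adjusted p = 0.0145). The call was also lost with all genes of at least 1 count (adjusted p = 0.359) and when libraries were scaled by their total reads (adjusted p = 0.125).

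**Figure D2:**
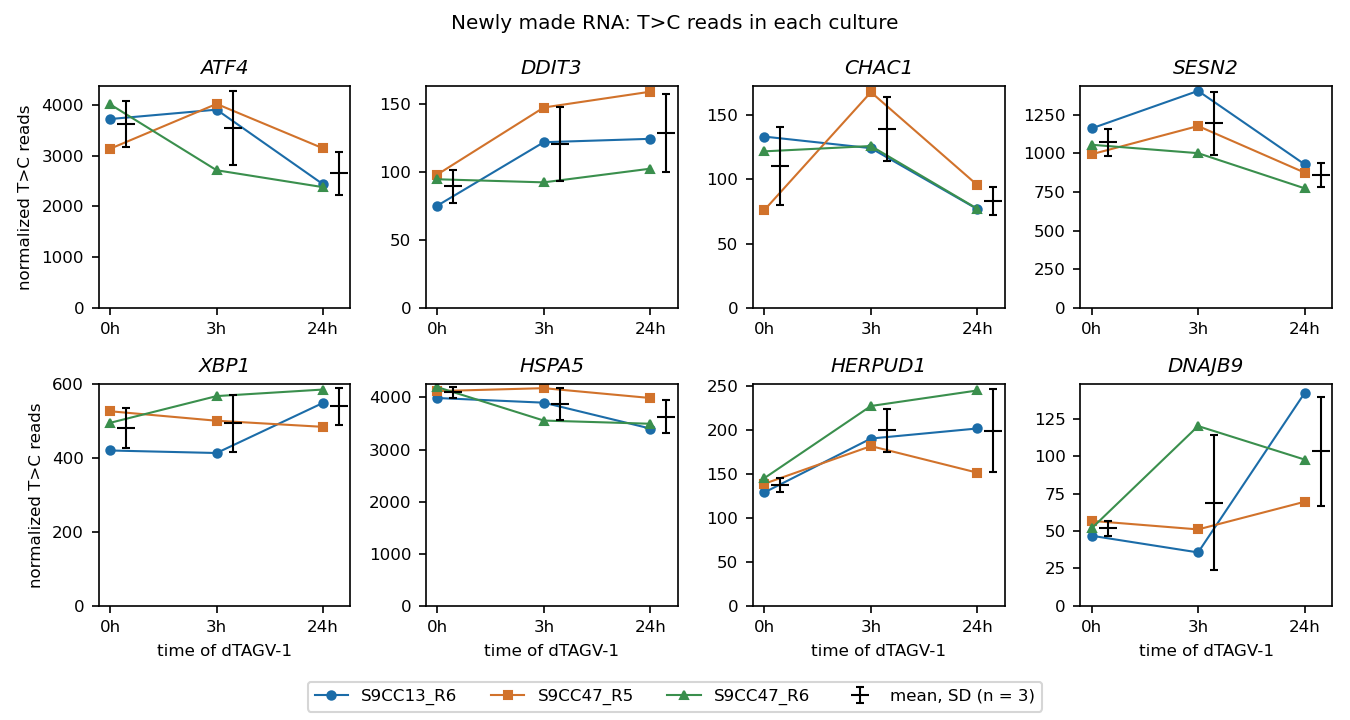
Normalized T>C reads (y axis, from 0) of 8 genes at 0h, 3h and 24h of dTAGV-1. Coloured lines join the libraries of 1 culture and black marks give the mean and SD (n = 3 per time), and ATF4 at 24h is seen to fall from 0h in S9CC13_R6 and S9CC47_R6 but not in S9CC47_R5, whereas HERPUD1 lies above its 0h libraries in all 3 cultures.

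DDIT3 (CHOP), the transcription factor downstream of ATF4 that is known for driving stress-induced cell death, had normalized T>C reads of 75.02, 97.9 and 94.5 before dTAGV-1. At 3h they were 122, 147 and 92.2. They were 124, 159 and 102 at 24h. All 24h libraries lay above all 0h libraries. The log2 fold change at 24h was 0.60 (SE 0.23, 95% interval 0.14 to 1.05) and did not pass (adjusted p = 0.152), although edgeR's quasi-likelihood test called it (0.60, adjusted p = 0.0608). ATF4 and DDIT3 thus had values of opposite sign at 24h.

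HSPA5 (BiP), the main ER chaperone and the usual read-out of ER stress, had normalized T>C reads of 3989, 4122 and 4199 before dTAGV-1. At 3h they were 3900, 4178 and 3557. They were 3404, 3990 and 3496 at 24h. The groups at 0h and 24h overlapped by 1 library, S9CC47_R5 at 24h. The log2 fold change at 3h was -0.10 (SE 0.08, adjusted p = 0.933). By 24h it was -0.15 (SE 0.08, adjusted p = 0.382), with a 95% interval from -0.31 to 0.00.

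XBP1, the transcription factor made from the transcript that IRE1 splices, had normalized T>C reads of 421, 527 and 496 before dTAGV-1. They were 414, 502 and 568 at 3h. At 24h they were 550, 485 and 586. These groups overlapped throughout. Its log2 fold change at 24h was 0.05 (SE 0.13, 95% interval -0.20 to 0.29, adjusted p = 0.936). The counts per gene do not separate spliced from unspliced XBP1.

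Among the other ER chaperone genes at 24h, DNAJB9, a cochaperone of BiP, had the highest log2 fold change in T>C reads, 0.70 (SE 0.34, adjusted p = 0.327), and was higher than at 0h in all 3 cultures. Its 24h libraries ranged from 69.6 in S9CC47_R5 to 142 in S9CC13_R6, against 46.9 to 56.8 at 0h. The disulfide isomerase PDIA4 was at 0.27 (SE 0.17, adjusted p = 0.562), and HSP90B1 (GRP94), the ER form of HSP90, at 0.19 (SE 0.11, adjusted p = 0.446). CALR, a lectin chaperone, was at -0.15, PDIA6 at -0.08, SDF2L1 at -0.17 and SEL1L, the adaptor of the HRD1 degradation complex, at 0.09, none of them called. CRELD2 (0.15), EDEM1 (0.30), which sorts misfolded glycoproteins for degradation, and MANF (0.64) were not called either. Over the 13 ER chaperone genes, 9 values were above 0, where 50.2% of all genes were, and the median was 0.15 beside 0.00 for all genes tested. CRELD2 was 1 of these 9, although its normalized T>C reads at 24h were lower than at 0h in S9CC13_R6 and S9CC47_R6.

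In the amino acid and ATF4 class at 24h, 11 of 22 tested genes were above 0 and 11 below, where 50.2% of all genes were above, with a median of 0.02. The enzymes of serine synthesis stood at -0.22 (PHGDH), 0.18 (PSAT1) and 0.12 (PSPH). Of the one-carbon enzymes of the mitochondrion, SHMT2 stood at -0.01 and MTHFD2 at 0.15, and asparagine synthetase (ASNS) stood at -0.16. Of the amino acid transporters, the values were -0.16 for SLC7A1, -0.18 for SLC7A5, -0.18 for SLC7A11, 0.07 for SLC3A2 and 0.17 for SLC38A2. The stress-induced genes TRIB3 (0.29), CHAC1 (-0.36), PPP1R15A (0.16), DDIT4 (0.05) and ATF5 (0.27) also failed the test. VLDLR, a lipoprotein receptor, had the lowest value of the class, -0.58 (SE 0.29, adjusted p = 0.363), and was lower in all 3 cultures. STC2, a secreted glycoprotein, stood at 0.18. These values come from the fit with the surrogate variable, and some signs differ from the reads. DDIT4, PSPH, PPP1R15A and STC2 were above 0 in the fit but had lower normalized T>C reads at 24h in 2 of 3 cultures. For DDIT4 the mean fell as well, from 83.1 to 75.3. No gene with a value below 0 was higher at 24h in more than 1 culture. In the fit, the transporters and enzymes of the class thus did not share a sign.

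No gene was called in T>C reads at 24h against 3h, where 1.14% of all genes were called. In DESeq2, 3 of the 35 had an unadjusted p under 0.05, against 8.14% of all genes. In the T>C comparisons with 0h, such genes were 3 of 35 at 3h, against 7.33% of all genes, and 7 of 35 at 24h, against 13.6%. At 24h against 3h edgeR called 0 as well. SESN2 was at -0.27 (adjusted p = 0.279) and PDIA4 at 0.46 (adjusted p = 0.373). The fit with the replicate block called these 2, SESN2 at -0.47 (adjusted p = 0.00573) and PDIA4 at 0.61 (adjusted p = 0.0366), and so did the fit without the surrogate variable (adjusted p = 0.0406 and 0.0515). Both fits also called more of all genes, 530 with the block and 373 without the surrogate variable, beside 137 in the main fit. CHAC1, which degrades glutathione, had the lowest value at -0.66 (SE 0.29, adjusted p = 0.452), and all of its 24h libraries (76.8 to 95.5 normalized T>C reads) lay below all of its 3h libraries (124 to 168).

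Total reads are less exposed to counting error, since they hold the unlabelled RNA as well. At 3h, 0 of 35 genes were called by DESeq2, where 1.89% of all 11710 genes were called, and 0 by edgeR. There were 2 genes with an unadjusted p under 0.05 in DESeq2, against 8.22% of all genes. The 2 were HSPA5 (-0.14, SE 0.07) and HERPUD1 (0.36, SE 0.15). At 24h, 3 of 35 were called, against 15.0% of all genes, and 11 had an unadjusted p under 0.05, against 23.8% of all genes. The 3 were ATF4, PSAT1 and PDIA4. With the replicate block 7 were called, the same 3 together with AARS, MTHFD2, SESN2 and DNAJB9, while the count over all genes went from 1751 to 1717. At 24h against 3h, 5 were called (PSAT1, PDIA4, HSP90B1, CHAC1 and SESN2), against 5.39% of all genes. With the replicate block 7 were called, the same 5 together with ATF4 (-0.41, adjusted p = 0.0319) and DDIT4 (-0.64, adjusted p = 0.0701), which stood at -0.25 (adjusted p = 0.207) and -0.46 (adjusted p = 0.379) without it. Over all genes the block raised the count in this comparison from 631 to 1544. ATF4 was also called there without the surrogate variable and with all genes of at least 1 count. edgeR called 4 of the 5, all but HSP90B1. Without S9CC13_R6 the gene called in both of these comparisons was ASNS alone (fitted values 0.61 and 0.56). Its normalized total reads at 0h, 3h and 24h were 4120, 5234 and 5532 in S9CC47_R5. They were 2882, 2218 and 2857 in S9CC47_R6, which thus did not rise from 0h to 24h. Without S9CC47_R5, PSAT1 was the 1 gene called at 24h against 3h. Without S9CC47_R6 there were 4 at 24h against 3h, ATF4 (-0.65, adjusted p = 0.000894), MTHFD2 (0.57, adjusted p = 0.0543), CALR (0.41, adjusted p = 0.0415) and PSAT1.

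ATF4 had 12999, 10216 and 13226 normalized total reads before dTAGV-1. At 3h it had 13165, 12846 and 9785. It had 8641, 9877 and 8238 at 24h. All 24h libraries lay below all 0h libraries, S9CC47_R5 by the least. The log2 fold change was -0.33 (SE 0.10, adjusted p = 0.0107), the same to 2 decimals as that in T>C reads. Without S9CC13_R6 the fitted value turned to 0.13 and was not called (adjusted p = 1.000), although ATF4 was lower at 24h than at 0h in both remaining cultures. ATF4 has 4 annotated pseudogene copies, and reads of such copies could not be told apart here.

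PSAT1 (chr9:78297125-78330093, hg38, plus strand), the aminotransferase of serine synthesis, had 3086, 5406 and 3136 normalized total reads before dTAGV-1. At 3h it had 2589, 4596 and 3998. It had 5147, 5656 and 5606 at 24h. S9CC47_R5 was high at 0h, so the groups at 0h and 24h overlapped, while the 24h libraries lay above all 3h libraries. PSAT1 rose by a log2 fold change of 0.40 (SE 0.10, adjusted p = 0.00184) against 0h and of 0.37 (SE 0.11, adjusted p = 0.0229) against 3h. The fitted size depended on the model. It was 0.55 and 0.58 without the surrogate variable, and 0.55 and 0.60 with the replicate block, all called. Without S9CC13_R6 the fitted values were -0.050 and -0.036, neither called (adjusted p = 1.000 in both). PSAT1 was nevertheless higher at 24h than at 0h and at 3h in both remaining cultures. The fitted values were 0.53 and 0.47 without S9CC47_R5 and 0.72 and 0.96 without S9CC47_R6, all called. PSAT1 also has 4 pseudogene copies in the annotation.

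PDIA4 (chr7:149003062-149028662, hg38, minus strand) had 1266, 1244 and 1196 normalized total reads before dTAGV-1. It had 1312, 1194 and 1133 at 3h. At 24h it had 1588, 1357 and 1719. All 24h libraries lay above all earlier ones, again with S9CC47_R5 nearest to them. PDIA4 rose by 0.33 (SE 0.11, adjusted p = 0.0244) against 0h and by 0.36 (SE 0.11, adjusted p = 0.0461) against 3h. Without S9CC13_R6 the rise against 0h was 0.17 and without S9CC47_R6 it was 0.29, neither called (adjusted p = 1.000 and 0.798). Against 3h, no pair of cultures called it (0.25 to 0.49, adjusted p 0.105 to 1.000).

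HSP90B1 (chr12:103930107-103953931, hg38, plus strand) had 9709, 9743 and 9976 normalized total reads before dTAGV-1. It had 9871, 8866 and 9372 at 3h. At 24h it had 10830, 10570 and 12364. All 24h libraries were above all others, and S9CC47_R6 was the highest. It rose by 0.24 (SE 0.08, adjusted p = 0.0857) against 3h, whereas its change against 0h, 0.18 (SE 0.08), was not called (adjusted p = 0.125). edgeR did not call the change against 3h (0.24, adjusted p = 0.130). No pair of the 3 cultures gave the 24h against 3h call alone (adjusted p 0.623 to 0.945). HSPA5 was at -0.09 (SE 0.07, adjusted p = 0.442) in total reads at 24h.

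CHAC1 (chr15:40952962-40956512, hg38, plus strand) had 204, 107 and 177 normalized total reads before dTAGV-1. It had 203, 241 and 198 at 3h. At 24h it had 110, 135 and 123. All 24h libraries lay below all 3h libraries, and S9CC47_R5 at 0h was lower still. CHAC1 was lower at 24h than at 3h by a log2 fold change of -0.72 (SE 0.25, adjusted p = 0.0845). Without S9CC13_R6 the fitted value was -0.19 and was not called (adjusted p = 1.000). In both remaining cultures CHAC1 nevertheless fell from 3h to 24h, from 241 to 135 and from 198 to 123. The other pairs of cultures did not call it either, at -0.80 without S9CC47_R5 (adjusted p = 0.414) and -1.12 without S9CC47_R6 (adjusted p = 0.199).

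SESN2 (chr1:28259518-28282491, hg38, plus strand) had 2026, 1818 and 1890 normalized total reads before dTAGV-1. It had 2428, 1969 and 1845 at 3h. At 24h it had 1716, 1528 and 1446. All 24h libraries were below all others. SESN2 was lower at 24h than at 3h by -0.27 (SE 0.09, adjusted p = 0.0781), and its change against 0h was -0.20 (SE 0.09, adjusted p = 0.124). With 1 culture left out, the value against 3h lay between -0.46 and -0.21 and was never called (adjusted p 0.106 to 1.000).

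**Figure D3:**
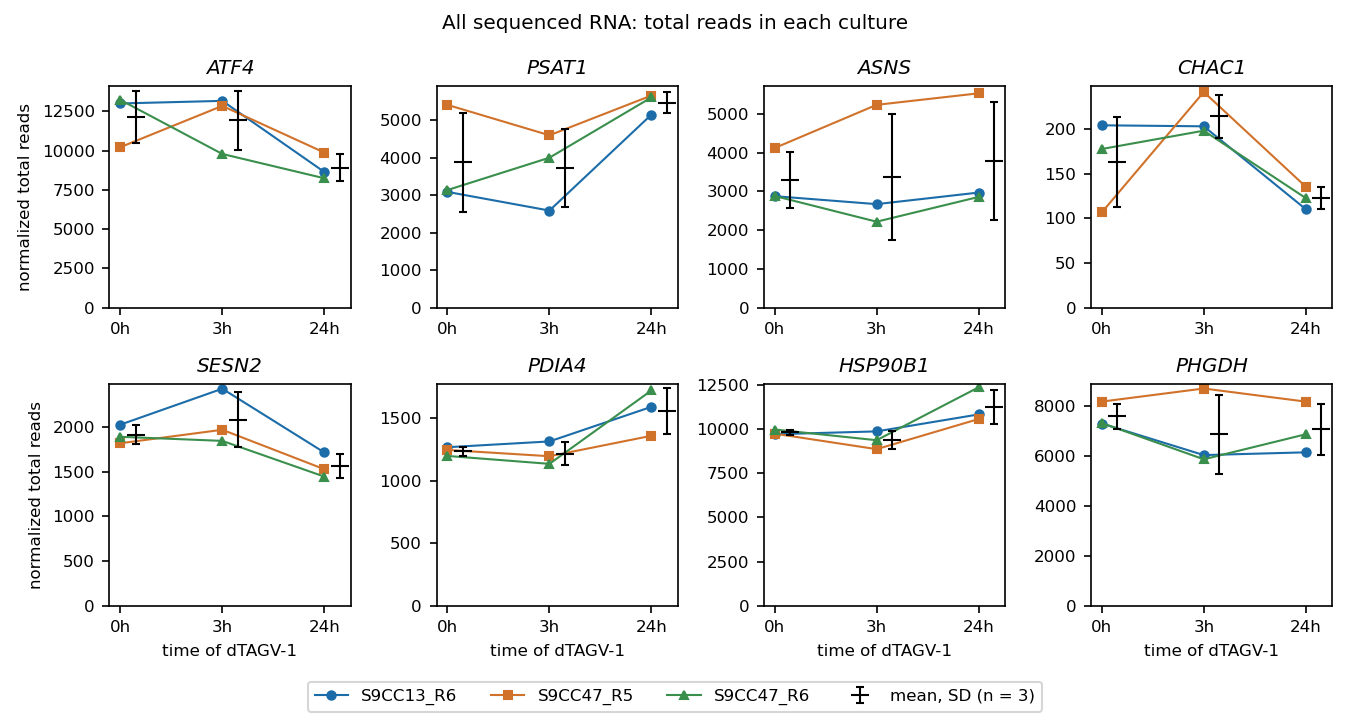
Normalized total reads (y axis, from 0) of 8 genes at 0h, 3h and 24h of dTAGV-1. Coloured lines are cultures and black marks the mean and SD (n = 3 per time), and ASNS and PHGDH are highest in S9CC47_R5 at every time, while ATF4 and SESN2 are lowest at 24h and PDIA4 and HSP90B1 highest at 24h.

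The cultures themselves differed for several amino acid genes. In total reads, all 3 libraries of S9CC47_R5 lay above the other 6 for 4 of 35 genes (ASNS, PHGDH, SLC7A5 and STC2) and below them for none, where 3.97% of all genes lay wholly above or below. ASNS had 4120, 5234 and 5532 normalized total reads at 0h, 3h and 24h in S9CC47_R5 and 2218 to 2970 in the other cultures, a ratio of means of 1.81. SLC7A5, the leucine transporter, had 1452 to 1582 in S9CC47_R5 and 804.6 to 1064.5 elsewhere. PHGDH, the first enzyme of serine synthesis, had 8196 to 8722 there and 5882 to 7336 elsewhere. S9CC47_R5 shares its clone with S9CC47_R6 and differs from both other cultures in batch, and batch and culture cannot be told apart here. For S9CC13_R6 the count was 1 of 35 (STC2, below; 3.89% of all genes on either side), and for S9CC47_R6 it was 0 of 35 (2.32%).

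The share of a gene's reads that carried a conversion after 2 h of 4sU differed widely between genes of both classes. At 0h, PHGDH had the lowest share, 6.85% ± 0.873 (SD, n = 3), followed by ASNS at 8.69% ± 1.497 and SHMT2 at 9.83% ± 1.05. VLDLR had the highest, 80.6% ± 5.41, followed by DNAJB9 at 77.2% ± 4.25 and CHAC1 at 69.7% ± 6.27. The median over all 12037 genes tested was 27.8%, with quartiles of 17.1% and 41.8%.

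In the amino acid class, 11 of 22 genes were above the upper quartile of all genes and 5 below the lower, and both regulators and enzymes were found on either side. PPP1R15A (65.8% ± 9.95), the phosphatase subunit that reverses eIF2α phosphorylation, DDIT4 (64.6% ± 2.97), SESN2 (56.8% ± 1.25), TRIB3 (52.5% ± 7.67) and DDIT3 (51.6% ± 11.3) were above the upper quartile, as were the enzymes CHAC1 and MTHFD2. ATF4 was near the middle at 30.5% ± 2.46, and the regulator ATF5 was below the lower quartile at 13.8% ± 0.598. The transporters ran from SLC7A5 at 14.1% ± 3.15 to SLC3A2, its heavy chain, at 62.2% ± 2.15, so that the 2 chains of 1 transporter were far apart. MTHFD2 (57.8% ± 2.26) and SHMT2, enzymes of the same mitochondrial pathway, were likewise apart.

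In the ER chaperone class, 7 of 13 genes were below the lower quartile of all genes. HSP90B1 stood at 11.5% ± 0.921, CALR at 12.7% ± 1.24, PDIA4 at 16.4% ± 1.90 and PDIA6 at 17.0% ± 1.48, while HSPA5 was at 27.2% ± 0.987. The 3 above the upper quartile were XBP1 (53.4% ± 2.07), HERPUD1 (53.3% ± 10.0) and DNAJB9. A share also depends on how many T bases the counted 3′ stretch holds, so the order of genes is a description of these reads and no test was made between genes.

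**Figure D4:**
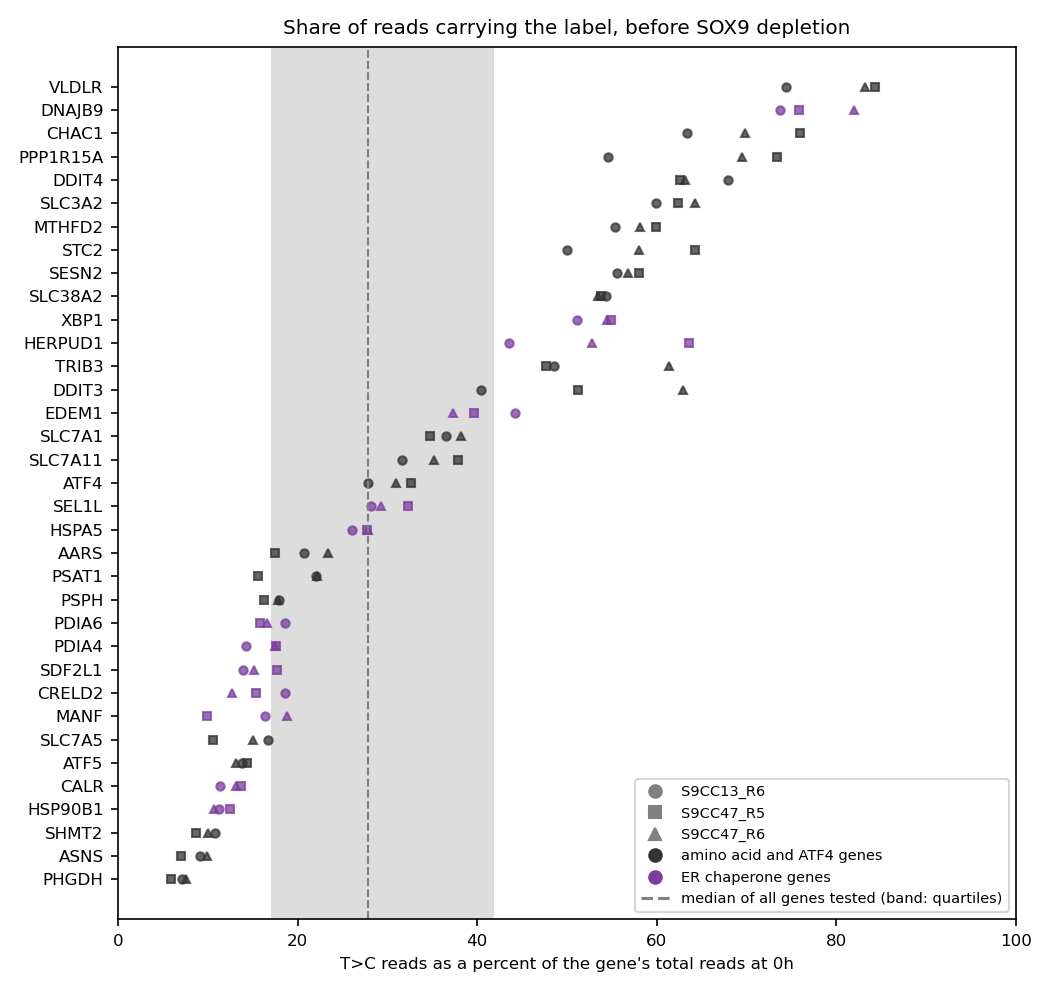
T>C reads as a percent of a gene's total reads at 0h (x axis) for the 35 tested genes, 1 point per culture, sorted by their mean. The dashed line is the median of all genes tested (27.8%) and the band its quartiles (17.1% to 41.8%), and the points run from PHGDH (6.85% on average) to VLDLR (80.6%).

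Whether T>C reads changed otherwise than unconverted reads of the same library was tested with 1 fit over both read types. At 3h 0 of 35 genes passed, against 0.266% of all genes, and at 24h 0 of 35, against 0.0166%. At an unadjusted p under 0.05 there were 2 and 5 in DESeq2, against 4.36% and 4.25% of all genes. At both times edgeR also called 0. The lowest p at 24h was that of ASNS, with a difference of log2 fold changes of -0.50 (SE 0.13, adjusted p = 0.494). For ATF4 the difference was -0.02 (95% interval -0.18 to 0.14).

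Other genes of the same pathways were read from lists, and their counts in T>C reads stand beside the 1.79% of all genes called at 3h and the 4.98% called at 24h. Of 18 stress sensors and eIF2 factors, none was called in T>C reads at 3h, and by 24h 1 was, EIF2B5, a subunit of the eIF2 exchange factor. Its normalized T>C reads went from 302.8 ± 21.9 to 219 ± 16.3 (-0.47 in log2, SE 0.17, adjusted p = 0.0898, with SD over the 3 libraries of a group here and below). Of 19 other amino acid and ATF4-linked genes tested, 0 were called at 3h and 3 at 24h, all lower. SLC1A5, a glutamine transporter, went from 856 ± 37.6 to 569.9 ± 43.7 normalized T>C reads (-0.62, SE 0.13, adjusted p = 0.000108). SLC1A4, a transporter of small neutral amino acids, went from 104 ± 11.9 to 49.8 ± 0.874 (-1.02, SE 0.27, adjusted p = 0.00638). GPT2, the mitochondrial alanine aminotransferase, went from 247 ± 20.3 to 155 ± 29.5 (-0.62, SE 0.18, adjusted p = 0.0279).

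Of 15 other tRNA synthetases tested, 0 were called in T>C reads at either time, and in total reads 4 were called at 24h, 3 lower and 1 higher. Of 30 other ER folding, translocation and degradation genes, 0 were called in T>C reads at either time, and in total reads 2 were called at 24h, both higher. Neither list had a call in total reads at 3h. In total reads at 24h, 4 of the 18 stress sensors (1 higher, 3 lower) and 6 of 20 amino acid genes (3 higher, 3 lower) were called. The shares called in total reads at 24h are to be read beside the 15.0% of all genes.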

How the data were processed

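SLAM-seq libraries (9, QuantSeq 3′ end chemistry) were analysed from 2 deposited count tables, 1 of T>C reads and 1 of total reads, with a row per gene symbol. By their methods, the authors trimmed read 1, mapped and counted it with slamdunk on hg38 and merged counts per gene. The counts are not normalized and no molecular identifiers are mentioned, so replicate spread, not depth alone, sets the precision. All 9 value columns of each table were used. Symbols were matched to GENCODE release 44.

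Counts entered 1 DESeq2 fit per table (version 1.42.0, R 4.3.3) with time, batch and 1 surrogate variable (sva 3.50.0), over protein-coding genes above 1 CPM in 3 or more libraries, without independent filtering. P-values were adjusted by Benjamini-Hochberg over all genes tested, and genes were called under 0.1. Normalized reads were obtained by dividing counts by the size factors of DESeq2. Intervals are 95% Wald intervals. T>C and unconverted reads (total minus T>C) were set against each other in a fit with library, read type, read type by batch and read type by time. Both fits were tested on simulated independent counts without batch or culture effects, so that check does not cover the batch, surrogate or culture terms. Cultures pair libraries across times by the clone and batch in their titles, as same-culture deviations did in part (r 0.02 to 0.29 in T>C reads, -0.06 to 0.61 in total reads). Alternatives included edgeR 4.0.16, the replicate block and each culture left out. The labels do not say that cultures were grown separately beyond clone and batch, so p-values measure the spread between these samples.

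The members and lists were chosen with earlier results of these data known. Every member is named, and each library's value is given for members called and for ATF4, DDIT3, HSPA5 and XBP1. At most 4 called genes were named per further list. The tRNA synthetases GARS, MARS, QARS and SARS had no unique match to a current symbol and were not tested.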

Additional observations from a re-analysis of the deposited data

Results flagged for a closer look

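For 5 of 35 genes the change of total reads at 24h was called as different from that at 3h, against 5.39% of all genes. This is the direct test of 24h against 3h in the same fit. At an adjusted p under 0.05 there were 2, PSAT1 and PDIA4. With 1 culture left out, PSAT1 alone of the 5 was called, without S9CC47_R5 and without S9CC47_R6. The log2 difference was -0.72 for CHAC1, which went from 0.38 at 3h to -0.34 at 24h against 0h. It was 0.37 for PSAT1 (0.03 to 0.40), -0.27 for SESN2 (0.07 to -0.20), 0.24 for HSP90B1 (-0.06 to 0.18) and 0.36 for PDIA4 (-0.03 to 0.33). Both changes share the 0h libraries. For CHAC1 neither change against 0h was called by DESeq2 (adjusted p = 0.744 at 3h and 0.403 at 24h). Its 24h library in S9CC47_R5 (135) lay above the 0h library of that culture (107). In T>C reads the same fit called none of the 5 between the times, although SESN2 and PDIA4 were called with the replicate block and without the surrogate variable. Groups of 3 libraries were not searched for outlying samples.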

How the results depend on the processing

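The culture as a replicate block changed the count of genes called in T>C reads (1 to 0 at 3h, 1 to 3 at 24h, and 0 to 2 at 24h against 3h) and in total reads (3 to 7 at 24h, and 5 to 7 at 24h against 3h). Over all genes the block moved the same T>C counts from 216 to 172, 599 to 722 and 137 to 530. It moved the total counts from 1751 to 1717 and from 631 to 1544. Without the surrogate variable the T>C counts were 0, 2 and 2, beside 145, 616 and 373 over all genes. In total reads, fitted changes were also larger without it for PSAT1 (0.55 against 0h and 0.58 against 3h) and ATF4 (-0.45 against 0h). The same held against 3h for CHAC1 (-0.81), SESN2 (-0.41) and HSP90B1 (0.26). PDIA4 hardly moved (0.33 against 0h and 0.35 against 3h). With all genes of at least 1 count, the T>C counts against 0h were both 0, and total reads at 24h gave 7 (214, 587 and 1936 over all genes). Size factors from total reads gave 0 for both T>C counts against 0h (231 and 586 over all genes). At 24h edgeR called 3 in T>C and 5 in total reads (968 and 2018 over all genes). At an adjusted p under 0.05, both T>C counts against 0h were 0, and that of total reads at 24h against 3h was 2 (169, 465 and 454 over all genes).

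Leaving out 1 culture, which leaves 6 libraries, gave T>C counts of 0 at 3h, 0 to 1 at 24h and 0 at 24h against 3h, and total counts of 1 to 4 in both comparisons of 24h. Calls over all genes fell as well in T>C reads, to 55 to 90, 64 to 259 and 23 to 83, from 216, 599 and 137. In total reads they were 163 to 788 at 24h against 0h and 92 to 884 at 24h against 3h, beside 1751 and 631 in the main fit. Without S9CC13_R6, 3 values in total reads reversed: ATF4 at 24h became 0.13 (range over the 3 omissions -0.49 to 0.13), and PSAT1 became -0.050 against 0h (range -0.050 to 0.72) and -0.036 against 3h (range -0.036 to 0.96). In both remaining cultures the normalized total reads of ATF4 and PSAT1 still moved in the direction of the main fit. The cause of the reversals was not tested. These 3 also lost the threshold. Of the 92 pairs of gene and setting, 31 more kept their sign and lost the threshold, and 58 kept both. Total reads at 3h and the comparison of read types gave 0 under each alternative run. MANF, EDEM1 and STC2, with at most 68 T>C reads in any library, have the least precise values.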
